A study of Mus musculus with 12 samples.

Results

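The ZIP proteins, encoded by the Slc39a genes, carry zinc, manganese and other divalent metals into the cytosol, either across the plasma membrane or out of organelles. This account follows 10 of them, Slc39a1, Slc39a4, Slc39a5, Slc39a6, Slc39a7, Slc39a8, Slc39a9, Slc39a10, Slc39a11 and Slc39a14, chosen by name. All 10 were found among the 53715 gene identifiers of the table, and all 10 were among the 16558 genes that passed the filter on low counts. The question was whether the other family members differed when Slc39a8 was deleted from the intestinal epithelium, and how each is distributed between ileum and colon.

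RNA of the ileal and colonic mucosa was sequenced from 8-week-old male mice that the labels assign to the C57BL/6J strain. The control mice are labelled Slc39a8-fl/fl, which means that both alleles carry the floxed gene and that it is intact without Cre. The knockout mice are labelled Slc39a8-fl/fl:Villin-Cre and are called Slc39a8-IEC KO: Cre recombinase is driven by the Villin promoter, so deletion is limited to intestinal epithelial cells and the other cells of the mucosa keep the gene. There were 3 libraries in each of 4 groups, 12 in all, each from 1 mouse. According to the study's methods, control animals could be floxed, wild-type or Villin-Cre mice. Whether an ileal and a colonic library came from the same mouse is not stated in the labels. Which exons are floxed was not examined here, and counts cover the whole gene, so transcripts that lack only the floxed exons would still be counted.

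In the intestine, SLC39A4 takes up dietary zinc at the apical membrane of enterocytes, and SLC39A5 lies in their basolateral membrane. SLC39A8 and SLC39A14 are the family members best known for manganese transport, and both also carry zinc, iron and cadmium. SLC39A1, SLC39A6 and SLC39A10 are zinc importers of the plasma membrane, whereas SLC39A7 releases zinc from the endoplasmic reticulum and Golgi apparatus and SLC39A9 and SLC39A11 are found mainly in Golgi and other internal membranes. The exporters of the ZnT family, encoded by Slc30a genes, move metal in the opposite direction.

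The manganese carriers differ from the zinc importers at the first residue of a metal-binding motif in a membrane-spanning helix. The motif (His or Glu, then Glu or Gln, any residue, Pro, His, Glu, any residue, and Gly, Ala or Ser) was found in the coding sequence of 7 of the 10 members. Its first residue is His in 5 of them and Glu in the other two, Slc39a8 and Slc39a14. The 27 coding bases that hold the motif and the codon after it are shown to make that difference visible, with the first codon of the motif in capitals. They were read on the coding strand from GENCODE M21 gene models on GRCm38 (mm10).
Slc39a4: CATgagctgccccatgaactcggggac
Slc39a5: CACgagctgccccacgaactgggtgac
Slc39a7: CACgaagtgcctcatgaggttggggat
Slc39a10: CATgaactgccacatgaattaggtgat
Slc39a8: GAGgagtttcctcatgagttaggggac
Slc39a14: GAGgaattccctcatgagctgggagac
In Slc39a8 the capitals mark codon 345 of 462, and in Slc39a14 they mark codon 373 of 489. The Slc39a7 motif lies within 1 exon, at chr17:34029549-34029575 on the minus strand. Those of the other members shown are split by an intron, and the intervals from their first to last base are chr15:76612938-76613225 (minus) for Slc39a4, chr10:128396652-128396772 (minus) for Slc39a5, chr1:46812172-46818084 (minus) for Slc39a10, chr3:135884383-135884606 (plus) for Slc39a8 and chr14:70308830-70309779 (minus) for Slc39a14. Slc39a6 also has the motif, with His first. The same letters were not matched in Slc39a1, Slc39a9 or Slc39a11.

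Each library held between 16749138 and 27903083 expected counts, which estimate the reads of each gene and can hold fractions. Levels are given as CPM, the counts of a gene scaled to the library total, after TMM scaling of the library sizes. Epithelial markers were high in every library: Epcam, Cdh1, Vil1, Krt8, Krt19 and Krt20 summed to between 17988 and 22464 CPM in ileum and to between 8904 and 10159 CPM in colon. Of the 6 ileal libraries, control library 3 and KO library 1 stood apart and are called low-muscle libraries, with 31.6 and 18.4 CPM summed over 5 smooth muscle genes where no other ileal library was below 1646 CPM. The same libraries had the lowest summed level of 4 fibroblast genes, at 39.0 and 36.3 CPM, and the highest of 4 Paneth cell genes, at 13068 and 10362 CPM against 4252 to 6840 CPM. Ileal KO library 2 held 2965 CPM of the colonic epithelial genes Car1, Aqp8 and Slc26a3, against 146 to 350 CPM in the other ileal libraries and 15286 to 27663 CPM in colon. Calls that depend on these libraries, and some of the differences that move without them, are given with and without them.

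Slc39a8, the targeted gene, lies at chr3:135825279-135888572 on the plus strand. It measured 8.39, 5.22 and 6.59 CPM in the ileal control libraries and 4.35, 2.62 and 2.80 CPM in the ileal KO libraries. In colon it measured 20.8, 20.5 and 20.1 CPM in the control libraries and 7.35, 11.5 and 7.93 CPM in the KO libraries. Every KO library was below every control library of the same tissue, as was the case for 1.57% of all genes tested in ileum, 5.85% in colon and 0.175% in both. Transcripts of the gene remained in every KO library, between 59 and 222 counts.

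The fitted difference of Slc39a8 between genotypes, with tissue as a second term in edgeR, was -1.13 on the log2 scale (SE 0.17, 95% interval -1.50 to -0.76), or 0.457 of the control level. It had the smallest unadjusted p of the 16558 genes, 2.31e-05, but edgeR's adjusted p of 0.382 did not pass the threshold of 0.1. The exact two-sided permutation test, with genotypes exchanged within each tissue, gave p = 0.005, the smallest that 400 arrangements allow. Should the tissues have been taken from the same animals, only 20 arrangements would remain and 0.1 would be the lowest possible p. DESeq2 called the gene at an adjusted p of 1.2e-05 and limma-voom at 0.0729. Without the 2 ileal libraries that held few muscle transcripts, edgeR called it too (log2 difference -1.24, adjusted p = 0.0194).

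The difference was -1.05 in ileum (SE 0.26) and -1.20 in colon (SE 0.25), each with an adjusted p of 1 in edgeR and p = 0.1 in the exact permutation test, the smallest that 20 arrangements allow. The effect in colon minus that in ileum was -0.14 (SE 0.36, 95% interval -0.93 to 0.64), and this value was positive (0.15) without the 2 ileal libraries with few muscle transcripts. In ileum the difference was -0.91 without KO library 2 and -1.34 without the 2 low-muscle libraries. These are RNA levels of whole mucosa, in which fewer cells of a type and less RNA per cell cannot be told apart.

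**Figure D1:**
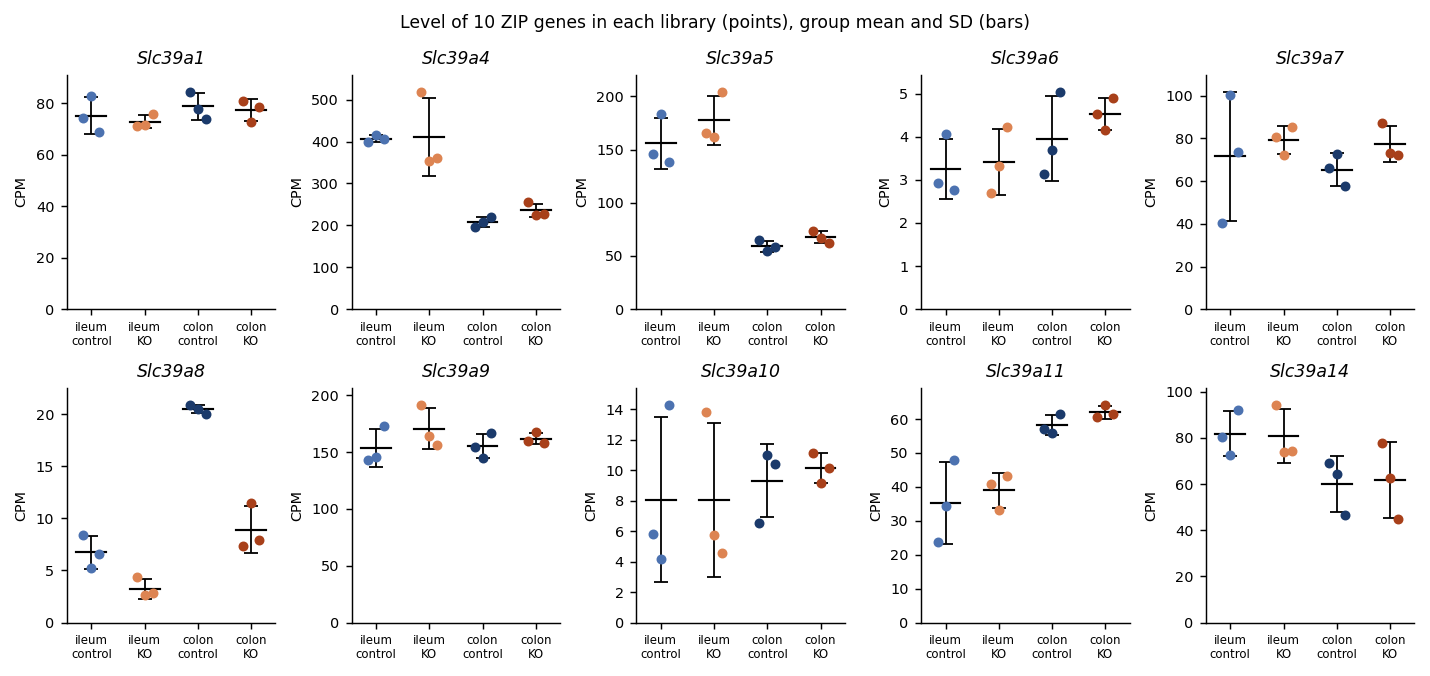
Level of each of the 10 genes in CPM (vertical axis, from 0) in each library (points), with the group mean and SD (bars, n = 3), for ileal and colonic control and Slc39a8-IEC KO mice. Slc39a8 lies between 20.1 and 20.8 CPM in colonic control libraries and between 7.35 and 11.5 CPM in colonic KO libraries, while the points of most other members overlap between genotypes.

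None of the other 9 members passed the test for genotype. Over both tissues, edgeR called 0 of the 10 members, against 0.0% of all genes (0 of 16558), and at an unadjusted p under 0.05 it found 1 member, Slc39a8, against 3.87% of all genes (641). By the same unadjusted level, 1.52% of genes passed in ileum, 2.33% in colon and 1.02% for the difference between tissues, where Slc39a8 was the member that passed in ileum and in colon and no member passed for the difference. Counting calls at an adjusted p under 0.1, edgeR called 0 members in ileum, in colon or for the difference between tissues (0.0% of all genes in each). DESeq2 and limma-voom each called Slc39a8 over both tissues and no other member. Over all genes DESeq2 called 4 of 28017 and limma-voom 1 of 16558, so the lack of other members says little about them. The levels of KO and control libraries did not overlap for 1 of 10 members in ileum, Slc39a8, against 3.7% of all genes, and for 2 of 10 in colon, Slc39a8 and Slc39a4, against 12.8%. None was higher in every ileal KO library than in every ileal control library (2.13% of all genes).

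Over both tissues, 8 of the 9 other members had a positive log2 difference, KO over control, and the values ran from -0.03 to 0.20. The median over the 10 members was 0.10, beside 0.0018 over all genes tested. With library size alone as the scaling, the median of all genes moved to 0.079 and Slc39a1, the member with a negative value, turned to 0.05, and with upper-quartile factors Slc39a14 turned to -0.002. All 9 of the 95% intervals included 0. Their limits state what these libraries could and could not show: the narrowest was that of Slc39a1 (-0.19 to 0.12) and the widest that of Slc39a10 (-0.65 to 0.75).

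**Figure D2:**
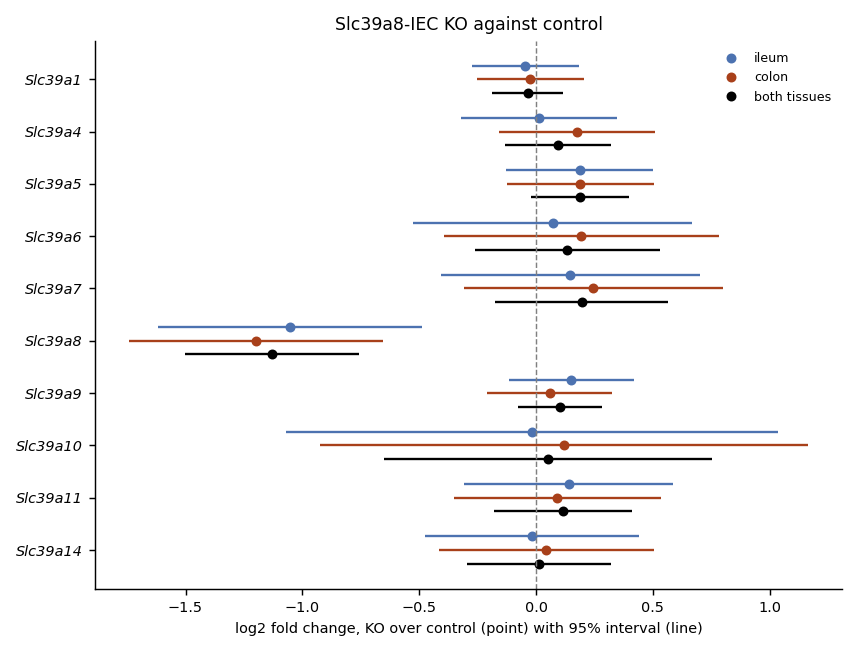
Log2 fold change of each gene, Slc39a8-IEC KO over control (horizontal axis), from edgeR, in ileum, in colon and over both tissues, with 95% intervals (lines, 3 libraries per genotype and tissue). The Slc39a8 intervals lie below 0, from -1.50 to -0.76 over both tissues, and those of the other 9 genes include 0.

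Slc39a14, which shares the Glu form of the motif with Slc39a8 and also carries manganese, showed no detectable difference between genotypes. It lies at chr14:70303469-70351425 on the minus strand. It measured 80.5, 72.7 and 92.0 CPM in ileal control libraries and 94.1, 73.7 and 74.3 CPM in ileal KO libraries. In colon it measured 69.2, 64.2 and 46.4 CPM in control libraries and 77.9, 62.6 and 44.9 CPM in KO libraries. The genotypes overlapped in both tissues. The log2 difference over both tissues was 0.01 (SE 0.14, 95% interval -0.29 to 0.32; edgeR adjusted p = 0.998), with an exact permutation p of 0.98.

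Slc39a5, the basolateral zinc importer, had the smallest p for genotype after Slc39a8. It lies at chr10:128395931-128401229 on the minus strand and measured 146, 183 and 138 CPM in ileal control libraries and 166, 162 and 204 CPM in ileal KO libraries. In colon it measured 64.9, 54.5 and 58.4 CPM in control libraries and 73.7, 67.0 and 62.1 CPM in KO libraries. KO and control overlapped in each tissue. The log2 difference over both tissues was 0.19 (SE 0.10, 95% interval -0.02 to 0.40; unadjusted p = 0.0731, edgeR adjusted p = 0.998), and the exact permutation test gave p = 0.065, or 0.01 with library size alone as the scaling. That scaling moved the median log2 difference of all genes to 0.079. The limit of 0.1, should the tissues be from the same animals, holds here too.

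Slc39a4, the apical zinc importer whose human counterpart is mutated in acrodermatitis enteropathica, lies at chr15:76612383-76617384 on the minus strand. In ileum it measured 399.6, 416 and 406 CPM in control libraries and 518, 353 and 361 CPM in KO libraries. In colon it measured 196, 209 and 221 CPM in control libraries and 255, 224 and 228 CPM in KO libraries. The ileal genotypes overlapped, with a log2 difference of 0.01, or -0.20 without the 2 low-muscle libraries, which include the KO library at 518 CPM. By contrast, in colon all 3 KO libraries were above all 3 control libraries, as were those of 6.98% of all genes tested. The colonic log2 difference was 0.18 (SE 0.15, 95% interval -0.16 to 0.51), with an edgeR adjusted p of 1 and an exact permutation p of 0.1, the smallest possible.

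Slc39a10, a zinc importer of the plasma membrane, varied widely between ileal libraries of the same group. In ileum it measured 5.79, 4.17 and 14.3 CPM in control libraries and 13.8, 5.74 and 4.60 CPM in KO libraries, so that 1 library of each genotype was well above its neighbours. Those were the control library 3 and KO library 1 that held few muscle and fibroblast transcripts. In colon the gene measured 6.55, 11.03 and 10.4 CPM in control libraries and 11.1, 9.17 and 10.2 CPM in KO libraries. Its log2 difference between genotypes over both tissues was 0.05 (SE 0.32) and lay between -0.21 and 0.37 when each library was left out in turn. In ileum alone that range was -0.65 to 0.70. In the 2 ileal libraries with few muscle transcripts the B cell gene Ms4a1 was at 9.60 and 11.9 CPM, against at most 0.758 CPM in the other ileal libraries, and the T cell gene Cd3e was at 2.80 and 3.10 CPM against 5.92 to 10.1 CPM. The part of muscle, Paneth cell or B cell transcripts in the Slc39a10 values was not tested.

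**Figure D3:**
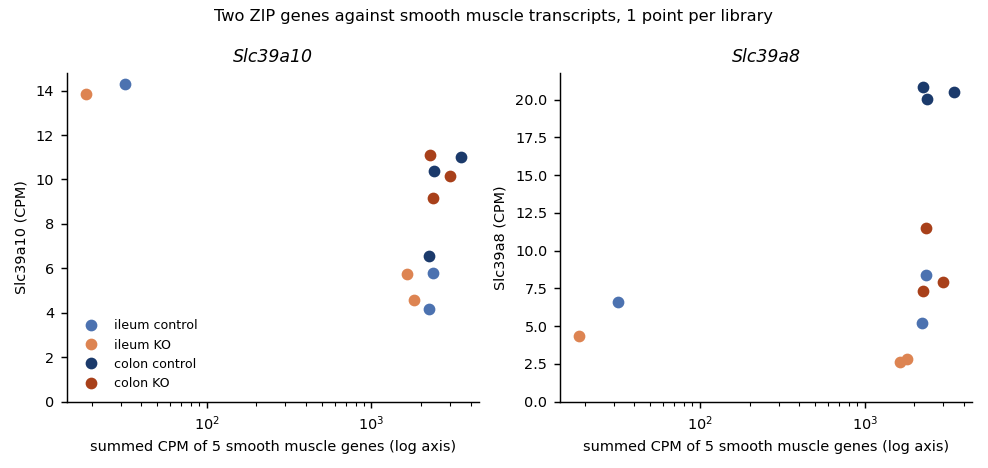
Level of Slc39a10 (left) and Slc39a8 (right) in CPM (vertical axes, from 0) against the summed CPM of 5 smooth muscle genes (horizontal log axis), 1 point per library, coloured by tissue and genotype. The 2 ileal libraries at 18.4 and 31.6 CPM of muscle genes have 13.8 and 14.3 CPM of Slc39a10, above the 4.17 to 5.79 CPM of the other ileal libraries, while their Slc39a8 levels are 4.35 CPM, above the other ileal KO libraries, and 6.59 CPM, between the other ileal control libraries.

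The other plasma membrane importers overlapped between genotypes in both tissues. Slc39a1 (chr3:90248172-90253612, plus) ranged from 68.8 to 84.5 CPM over the 12 libraries. Its log2 difference between genotypes was -0.03 (SE 0.07). Slc39a6, on chromosome 18, measured from 2.68 to 5.04 CPM, with 44 to 118 counts per library. Its log2 difference was 0.13 (SE 0.18, 95% interval -0.26 to 0.53).

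Among members of the internal membranes, Slc39a9 (chr12:80643883-80683342, plus) measured between 143 and 191 CPM, with a log2 genotype difference of 0.10 (SE 0.08). It shares 459 exon bases with Erh on the opposite strand. Slc39a11 (chr11:113244853-113650079, minus) measured 23.8, 34.3 and 47.8 CPM in ileal control libraries, 40.8, 33.1 and 43.1 CPM in ileal KO libraries and between 55.9 and 64.1 CPM in colon, with a genotype difference of 0.12 (SE 0.14). That value was 0.02 without ileal control library 1 and 0.21 without the 2 low-muscle libraries, and in ileum alone it moved from 0.14 to -0.08 and 0.38. Slc39a7 (chr17:34028269-34031682, minus) measured 40.3, 100.6 and 73.9 CPM in ileal control libraries and between 57.5 and 87.3 CPM in the other 9 libraries. Its genotype difference over both tissues was 0.20 (SE 0.17), and in ileum it was 0.15, or -0.14 without control library 1, the library at 40.3 CPM. Slc39a7 shares 2084 of its 2584 exon bases on the same strand with Gm20427, annotated as a processed transcript, which took 0.43 to 4.61 CPM. How reads of the shared bases were divided between them was not examined, so the Slc39a7 level is uncertain.

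Summed over the 9 members other than Slc39a8, the family came to between 916 and 1043 CPM in ileal control libraries and between 939 and 1179 CPM in ileal KO libraries, which overlapped. In colon the sum was 703, 693 and 701 CPM in control libraries and 811, 744 and 720 CPM in KO libraries. All 3 colonic KO libraries were higher, as were those of 6.98% of single genes tested. Slc39a4 was the 1 member that was higher in this way. It made up 27.1% to 31.3% of the CPM of the 10 members in colon. With CPM divided by exon length, so that genes can be set against each other, Slc39a4 alone made up 32.1% to 48.2% of the sum of the 10 genes in each library. Slc39a8 made up 1.34% to 1.38% of that sum in colonic control libraries and 0.420% to 0.725% in colonic KO libraries. In ileum its share was 0.210% to 0.401% in control libraries and 0.117% to 0.164% in KO libraries.

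Between ileum and colon, several members passed the test. In control mice, 4 of 10 members passed the test, against 35.9% of all genes, and 2 were higher in colon (16.2% of all genes) and 2 lower (19.6%). In KO mice, whose libraries are separate from those of the control mice, 4 of 10 members passed, against 37.1% of all genes, with 2 higher (17.1%) and 2 lower (20%). The count of members was close to the share of all genes in both genotypes. The members called were Slc39a4, Slc39a5, Slc39a8 and Slc39a11 each time. Ileal and colonic levels did not overlap for 5 of 10 members in control mice (40.7% of all genes), 2 of them higher in colon (20.3%) and 3 lower (20.4%). In KO mice they did not overlap for 4 of 10 (50.4% of all genes), 2 higher (25.5%) and 2 lower (24.9%). The median over the members was 0.04 in control mice and 0.03 in KO mice, beside 0.016 and 0.014 over all genes.

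Slc39a8 and Slc39a11 were higher in colon. From the values above, every colonic Slc39a8 level was above every ileal level of the same genotype. In control mice the log2 difference, colon over ileum, was 1.61 (SE 0.25, edgeR adjusted p = 0.00071), or 3.04 times the ileal level. In KO mice it was 1.46 (SE 0.26, edgeR adjusted p = 0.0015), or 2.75 times, so the difference between the regions was also measured in mice lacking the gene in the epithelium. It was 1.32 in KO mice without ileal KO library 2 and 1.73 without ileal KO library 1 and control library 3, and the call was kept in both (adjusted p = 0.0091 and 3.1e-04).

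Slc39a11 was above the ileal levels in all 6 colonic libraries. The log2 difference was 0.72 in control mice (SE 0.20, edgeR adjusted p = 0.022) and 0.67 in KO mice (SE 0.20, edgeR adjusted p = 0.030). Without the 2 low-muscle libraries these differences were 0.98 and 0.71. The KO call depended on ileal KO library 2, which held transcripts of colonic epithelium: without it the difference was 0.56 and the adjusted p was 0.104. That library had the lowest Slc39a11 level of the ileal KO libraries, 33.1 CPM against 40.8 and 43.1 CPM. The part of colonic transcripts in its level was not tested.

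Slc39a4 and Slc39a5, the importers of the apical and basolateral membrane of enterocytes, were lower in colon. Neither gene's colonic and ileal levels overlapped in either genotype. The log2 difference of Slc39a4 was -0.97 in control mice (SE 0.15, edgeR adjusted p = 7.4e-04) and -0.80 in KO mice (SE 0.15, edgeR adjusted p = 0.0025), or -0.59 in KO mice without the 2 low-muscle libraries (adjusted p = 0.0037). That of Slc39a5 was -1.39 in both genotypes (SE 0.14 in each), with edgeR adjusted p-values of 3.5e-05 and 3.6e-05. Colon also held less of the 6 general epithelial markers. In control mice 6 of 6 were called lower (19.6% of all genes), Epcam by a log2 difference of -1.10 and Vil1 by -1.96. The 3 colonic epithelial genes Car1, Aqp8 and Slc26a3 went the other way, with 3 of 3 called higher in control mice (16.2% of all genes). The part of epithelial content in the Slc39a4 and Slc39a5 differences was not tested.

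**Figure D4:**
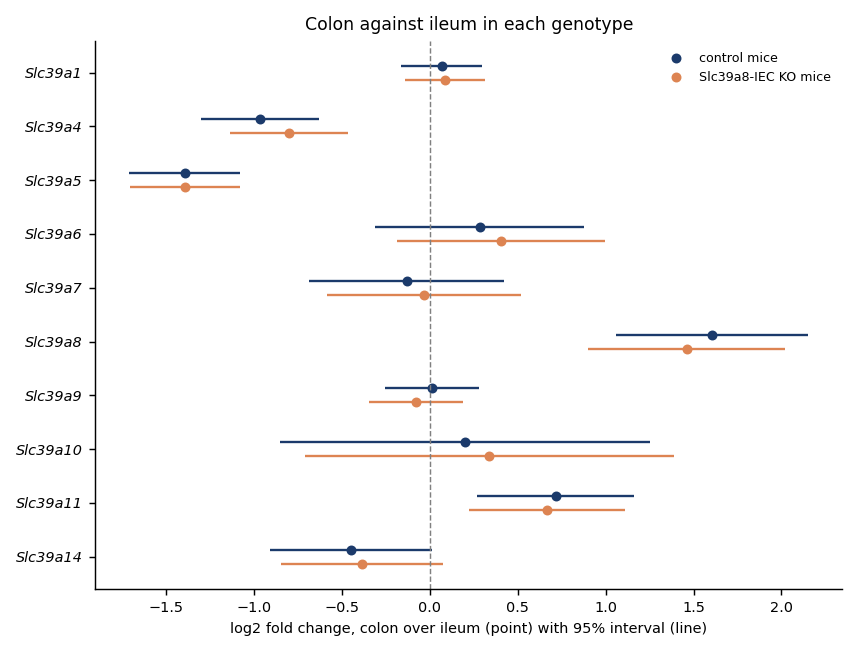
Log2 fold change of each gene, colon over ileum (horizontal axis), from edgeR in control mice and in Slc39a8-IEC KO mice, with 95% intervals (lines, 3 libraries per tissue and genotype). Slc39a8 (1.61 and 1.46) and Slc39a11 (0.72 and 0.67) lie above 0, Slc39a4 (-0.97 and -0.80) and Slc39a5 (-1.39 and -1.39) lie below 0, and the intervals of the other 6 genes include 0.

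The remaining 6 members were not called between the tissues in either genotype. Slc39a14 was lower in colon in all 3 control libraries, with a log2 difference of -0.45 (SE 0.21, 95% interval -0.91 to 0.01; edgeR adjusted p = 0.136), and in KO mice it was -0.38 (adjusted p = 0.194) with overlapping levels. Slc39a10 was at 0.20 in control mice and 0.34 in KO mice (SE 0.48 in each). Without the 2 ileal libraries that held few muscle transcripts, Slc39a10 was called higher in colon in both genotypes, by 0.89 (adjusted p = 0.0198) and 0.98 (adjusted p = 0.0107). Slc39a7 was at -0.13 in control mice, and at -0.42 with a call (adjusted p = 0.0829) without ileal control library 1. Slc39a1, Slc39a6 and Slc39a9 lay between -0.08 and 0.41. Library size alone as the scaling moved the median of all genes from 0.016 to 0.24 in control mice and from 0.014 to 0.29 in KO mice, and with it Slc39a1 was called in both genotypes (0.29 and 0.36) and Slc39a6 in KO mice (0.69). The members called were then 3 higher and 2 lower in control mice and 4 higher and 2 lower in KO mice. Over all genes, 4156 of 6258 calls in control mice were then higher in colon, against 2689 of 5940 with TMM scaling, and 4637 of 6545 calls in KO mice, against 2837 of 6149. Under that scaling Slc39a7 (0.09 and 0.24) was positive in both genotypes, and Slc39a9 was positive in KO mice (0.19).

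To compare levels between genes, CPM was divided by the kilobases of merged exons. On this scale Slc39a4 was the most abundant member in each of the 4 groups, at 131 CPM per kilobase in ileal control mice, 132 in ileal KO, 67.2 in colonic control and 75.9 in colonic KO mice. Slc39a5 came second in ileum, at 70.0 and 79.7 CPM per kilobase, with no overlap with its neighbours. In colonic control mice Slc39a1 was second (33.3), followed by Slc39a5 (26.6) and Slc39a7 (25.3), whose libraries overlapped, and in colonic KO mice the libraries of Slc39a1 (32.8) and Slc39a5 (30.4), and those of Slc39a5 and Slc39a7 (30.0), overlapped.

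Slc39a11, Slc39a9 and Slc39a14 filled the middle of the order, between 5.68 and 18.5 CPM per kilobase. Slc39a11 stood above Slc39a9 in colon (17.3 against 15.3 in control mice and 18.5 against 15.9 in KO mice, with no overlap) and below it in ileum (10.5 against 15.1 in control mice, overlapping, and 11.6 against 16.8 in KO mice, not overlapping). When the longest transcript was used for the length instead, Slc39a9 came to 28.6 and Slc39a11 to 20.9 in colonic control mice, so their order depended on the length chosen.

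Slc39a8, Slc39a10 and Slc39a6 formed the bottom of the order. In colonic control mice Slc39a8 was eighth, at 2.67 CPM per kilobase, above Slc39a10 (1.53) and Slc39a6 (0.97) without overlap. In colonic KO mice it was ninth, at 1.16, and overlapped Slc39a6 (1.11). In ileal control mice it stood at 0.88 and overlapped both Slc39a10 (1.33) and Slc39a6 (0.80), and in ileal KO mice it was the lowest of the 10, at 0.42, below Slc39a6 (0.84) without overlap. By longest transcript Slc39a8 was above Slc39a10 in ileal control mice (1.60 against 1.47) and in colonic KO mice (2.12 against 1.85), so their order there also depended on the length chosen. Slc39a14, the other manganese carrier, was at 7.75 and 7.65 CPM per kilobase in ileal control and KO mice and at 5.68 and 5.86 in colonic control and KO mice, above Slc39a8 in each group.

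**Figure D5:**
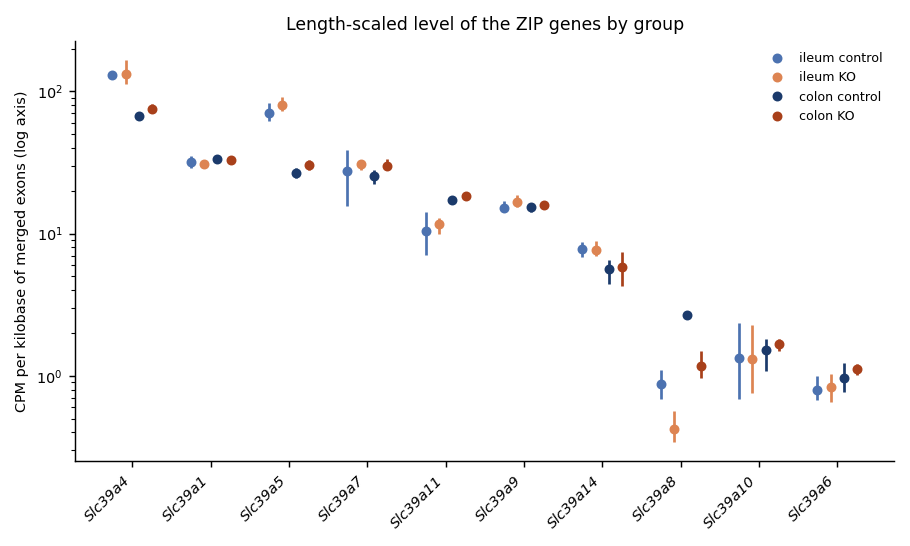
Level of each member in CPM per kilobase of merged exons (vertical log axis) as the group mean (points) with the range of 3 libraries (lines), in the order of colonic control mice. Slc39a4 is highest in all 4 groups (67.2 to 132), and Slc39a8 spans 0.42 in ileal KO to 2.67 in colonic control mice.

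The pattern of each member over the 12 libraries was matched against all genes tested, by Pearson's r of log2(CPM + 0.5). For Slc39a8 the most alike were Zfp932 (r = 0.95), Ift88 (0.94) and Phf14 (0.94). For the members that differ between tissues they were Slc16a10 for Slc39a4 (0.98), Erp44 for Slc39a5 (0.995) and Prmt6 for Slc39a11 (0.98). Sox4 was the gene most like Slc39a10 (0.97). The best matches of the others were Ift27 for Slc39a1 (0.91), Jph3 for Slc39a6 (0.96), Cog8 for Slc39a7 (0.96), Ap3b1 for Slc39a9 (0.92) and Bag4 for Slc39a14 (0.91). The libraries share tissue and genotype, so these values are descriptions of the same 12 points.

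The 4 other ZIP genes of the mouse were also measured. Slc39a3, a zinc importer, ranged from 13.7 to 22.6 CPM, Slc39a13, which acts in the secretory pathway, from 2.15 to 8.38 CPM, and Slc39a2 from 0.28 to 1.33 CPM, while Slc39a12 had at most 3 counts in a library and was not tested. None of the 3 tested was called for genotype (0.0% of all genes). Between tissues, Slc39a2 was called higher in colon in control mice (log2 difference 1.59, edgeR adjusted p = 0.0207) and Slc39a13 in KO mice (0.95, adjusted p = 0.0406). This was 1 of 3 tested genes in each genotype, beside 16.2% and 17.1% of all genes called higher. Slc39a2 had only 5 to 8 counts in each ileal control library. Whether these differences depend on genotype is given by the contrast between tissues, in which neither was called.

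Other genes of metal transport were called between tissues. For genotype edgeR called 0 of all 16558 genes tested, so a count of 0 in a list says nothing about that list. Of 10 ZnT exporter genes, 8 were tested and 0 were called for genotype. Between tissues of control mice 1 was higher in colon, Slc30a10, the manganese exporter (log2 difference 2.42), and 4 were lower, led by Slc30a2, a zinc exporter into vesicles (-6.13), and Slc30a5, a zinc transporter of the early secretory pathway (-1.17), beside 16.2% of all genes higher and 19.6% lower. In KO mice 1 was higher, Slc30a10 (2.10), and 2 were lower, Slc30a2 (-7.00) and Slc30a5 (-1.08), beside 17.1% and 20% of all genes. Slc30a2 was at 35.8 to 60.1 CPM in ileum and 0.24 to 0.80 CPM in colon. The summed Paneth cell genes were at 4252 to 13068 CPM in ileum and 5.13 to 12.04 CPM in colon. The part of Paneth cells in the Slc30a2 difference was not tested.

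Of 8 other manganese and iron transport genes, 0 were called for genotype. Between tissues 1 was higher in colon in each genotype, Slc40a1, which encodes the iron exporter ferroportin (2.002 in control and 2.42 in KO mice), and 1 was lower, Tmem165, a Golgi manganese and proton exchanger (-0.55 and -0.51). These were 2 of 8 genes in each genotype, beside 35.9% of all genes called in control mice and 37.1% in KO mice. The share of so short a list was not tested against that of all genes. Of the 3 zinc-responsive genes, the metallothioneins Mt1 and Mt2 and the zinc-sensing factor Mtf1, 0 were called for genotype, and Mtf1 was lower in colon in both genotypes (-1.36 and -1.40).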

How the data were processed

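The authors deposited 1 table of expected counts per gene for 12 libraries, estimates that need not be whole and are not normalized; 93.7% of the values were whole. Per the labels, RNA was primed with oligo-dT, and the submitters' processing notes name STAR and mm10. The paper's Reporting Summary names UMI-tools for duplicate removal and FeatureCounts for counting; it does not name a step that gives fractional expected counts. Spike-in lines (92, all at 0) were left out. Identifiers were paired with GENCODE M21 symbols without the version number (53620 of 53715).

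Expected counts were rounded. edgeR 4.0.16 (R 4.3.3) filtered with filterByExpr over the 4 groups, scaled by TMM and tested by quasi-likelihood with Benjamini-Hochberg adjustment over 16558 genes, at a threshold of 0.1. Genotype over both tissues had tissue as a term, and the other contrasts came from a model of the 4 groups. Adjusted p-values are edgeR's unless DESeq2 1.42.0 or limma-voom (limma 3.58.1) is named. Permutation tests were exact and two-sided on log2(CPM + 0.5). The steps were tested on simulated data.

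The members, lists and alternatives were chosen with earlier results of these data known. Genes named are all members, the other ZIP genes, list genes called for genotype, the 2 largest called changes in each direction between tissues, and the genes most alike. Epcam and Vil1 were named outside that rule after their values were seen, as were single markers of B and T cells. Protein sequences were not used here. The summed level of a lymphocyte marker list is not reported here.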

Additional observations from a re-analysis of the deposited data

How the results depend on the processing

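Of 1490 values of single genes under the alternatives, 1476 kept their side of the threshold and 14 changed it, and 0 called values changed sign. The alternatives were other tools, scalings and filters, counts without rounding, a threshold of 0.05, a replicate block, the 6 libraries of a comparison alone or no tissue term, each library left out, the 2 ileal libraries with few muscle transcripts left out and, chosen after the values were seen, the counts of Slc39a7 and Gm20427 added together. For genotype over both tissues the count of members called was 0 and became 1, Slc39a8, under DESeq2 (log2 difference -1.13), limma-voom (-1.18), without both low-muscle libraries (-1.24) and without ileal KO library 1 (-1.24, adjusted p = 0.0864). Over all genes tested, these alternatives called 4, 1, 5 and 1 genes, in that order. Leaving out each library in turn gave 0 to 1 calls and differences of -1.24 to -1.06. Counts for genotype in ileum, in colon and for their difference were 0 under every alternative run. Colon against ileum gave 4 to 5 calls in control mice and 3 to 6 in KO mice, and 4 to 5 and 3 to 5 when each library was left out. By the limit set for pairing (every pair over 0.1), replicate numbers did not pair the libraries: deviations of same-numbered libraries correlated between -0.73 and 0.38, over 0.1 in 6 of 18 pairs, and 7 of 18 were best with their own number. Among the pairs that could be the same mouse, ileal and colonic libraries of the same genotype, 3 of 3 were best with their own number in KO mice (0.08 to 0.30) and 1 of 3 in control mice (-0.06 to 0.17). Tissues of unlike genotype cannot share a mouse. Of those pairs, 2 of 3 were best for ileal KO with colonic control libraries (0.04 to 0.14). For ileal control with colonic KO libraries, 0 of 3 were best (-0.21 to -0.12). These values come from the data, not the design, and do not settle the pairing. The replicate block left the genotype counts at 0 and called 5 members between tissues in control mice, adding Slc39a14 (-0.48, adjusted p = 0.0946). Slc39a14 was also called between tissues in control mice without colonic KO library 3 (-0.47) and in KO mice without colonic KO library 1 (-0.60). With 3 libraries per group the interval of Slc39a10 for genotype reaches 1.03 in ileum and 1.17 in colon.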
